A study of Homo sapiens with 6 samples.

Results

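The splicing factor genes described here were the SR proteins, the hnRNPs and a small set of related regulators in A549 cells, a human lung adenocarcinoma cell line. They were chosen by name from the protein-coding rows of the count table: every SRSF, HNRNP, RBFOX and PTBP symbol, together with TRA2A, TRA2B, ESRP1, ESRP2, KHDRBS1, QKI and RBM39. This gave 46 of the 29889 genes in the table, namely 21 hnRNP genes, 12 SRSF genes, 3 SR-like genes (TRA2A, TRA2B, RBM39), 3 PTBP genes and 7 other regulators. In the CELF6-OE group, A549 cells received the plasmid pIRES-hrGFP-1a carrying CELF6, an RNA-binding protein of the CELF family that itself regulates splicing. In the Control group the cells received the empty plasmid. Both groups were transfected with Lipofectamine 2000 and collected after 48 h. Each group had 3 biological replicates, so all comparisons were made over 6 libraries from 1 cell line under transient overexpression from a plasmid.

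SR proteins bind exonic enhancers through RNA recognition motifs and recruit the splicing machinery through an arginine- and serine-rich domain. hnRNPs coat nascent transcripts and often act against exon inclusion, so the balance of both groups shapes which exons a cell uses. PTBP proteins bind pyrimidine-rich tracts and mostly repress exons, and RBFOX, ESRP and QKI proteins steer exons in a position-dependent way in neurons, epithelia and other tissues. Many genes of these families hold their own message in check through a poison exon or a retained intron, whose inclusion sends the transcript to nonsense-mediated decay. Total counts per gene, as used below, do not separate such isoforms.

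The counts per library ranged from 33748328 to 35413404 in CELF6-OE and from 36422617 to 37920700 in Control. CELF6 had 18646, 20789 and 11571 counts in the CELF6-OE libraries and 0 counts in each Control library, where a count of 0 allows up to 3. Levels are given as FPKM (fragments per kilobase of transcript, scaled to the mapped fragments of a library). Among the epithelial markers, KRT8 and KRT18 carried most of the summed level. EPCAM was low, at 0.82 to 1.20 FPKM in CELF6-OE and 0.91 to 1.77 FPKM in Control. CDH1 had 2.80 to 4.95 FPKM in CELF6-OE and 10.49 to 11.22 FPKM in Control. The alveolar type II, endothelial and fibroblast markers with a value were at or near 0, the highest being NAPSA at 0.30 to 0.88 FPKM. VWF, COL1A2 and CD3E had no FPKM value. CD14 gave most of the summed leukocyte level of 3.34 to 4.67 FPKM in CELF6-OE and 3.03 to 3.72 FPKM in Control, and PTPRC was at or near 0. The summed epithelial level of 5 markers was 3335 to 4083 FPKM in CELF6-OE and 4654 to 5081 FPKM in Control, and the part of this shift in the results below was not tested.

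The splicing factor genes covered a wide range of levels in these cells. Mean FPKM over all libraries was at least 100 in 8 of the 46 genes, at least 10 in 33 and under 1 in 6. HNRNPAB, HNRNPA2B1 and HNRNPA1 stood at the top, and SRSF9 and SRSF2 led the SR proteins. Together the 46 genes took 0.83% to 1.06% of the counts of a library. The filter on low counts kept 43 of them among the 15847 genes tested.

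**Figure D1:**
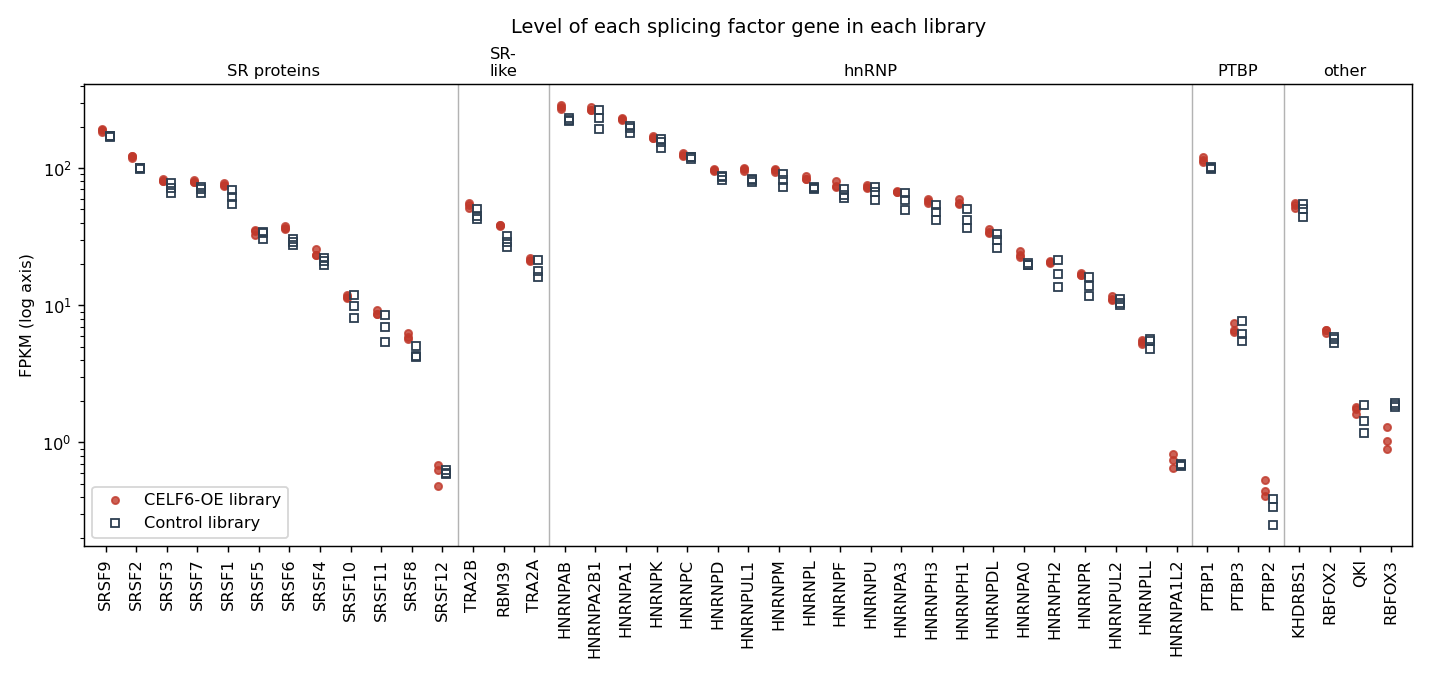
FPKM (log axis) of the 43 splicing factor genes kept by the count filter, by family and in falling order of level, with 1 point per library (filled circles, CELF6-OE; open squares, Control; n = 3 each). HNRNPAB was highest, most of the CELF6-OE points lie slightly above the Control points, and RBFOX3 lies below them; ESRP1, ESRP2 and RBFOX1 are not drawn.

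The 3 genes removed by the filter were ESRP1, ESRP2 and RBFOX1. ESRP1 had 2, 3 and 1 counts in the CELF6-OE libraries and 1, 1 and 0 counts in the Control libraries. For ESRP2, the other epithelial splicing regulator, the CELF6-OE libraries gave 0, 4 and 3 counts and the Control libraries 1, 3 and 5. For RBFOX1, the CELF6-OE libraries gave 1, 2 and 2 counts and each Control library 0, which allows up to 3 per library. All 3 genes were therefore close to the limit of detection, and no difference between the groups was detectable at this depth.

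To determine whether splicing factor transcripts changed with CELF6-OE, the counts of all 15847 genes were compared between the groups by edgeR's quasi-likelihood test. After Benjamini-Hochberg adjustment at a threshold of 0.05, 13 of the 43 splicing factor genes were higher in CELF6-OE (30.2%) and 1 was lower. Among all genes tested, 6.47% were higher and 11.5% were lower. Among the 4885 genes with an average log2 CPM (counts scaled to library size) of at least 5, which are closer in level to most splicing factors, 9.6% were higher. The genes called higher were 8 hnRNPs (HNRNPAB, HNRNPH1, HNRNPL, HNRNPUL1, HNRNPA1, HNRNPA0, HNRNPH3, HNRNPF), 4 SR proteins (SRSF6, SRSF2, SRSF8, SRSF1) and the SR-like factor RBM39. The gene called lower was RBFOX3. The number called higher rested on the libraries used: it was 26 without Control 1, 11 without Control 3, 2 without Control 2, and 4, 3 and 6 without CELF6-OE 1, 2 and 3, respectively. The share of all genes called higher moved the same way without Control 1 (11.9%) and without Control 2 (1.78%). It also did so without CELF6-OE 1, 2 and 3, at 2.33%, 1.74% and 3.85%. Without Control 3 the directions differed: the share of all genes rose from 6.47% to 8%, while the number of splicing factor genes fell from 13 to 11.

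The changes were small. The log2 fold changes of the 13 genes ran from 0.20 to 0.37, an increase of 14.8% to 29.6%. None of them passed a fold change of 1.5 at an unadjusted p under 0.01, a rule that 1.36% of all genes passed as higher and 5.91% as lower, and RBFOX3 alone passed it among the splicing factors. Without Control 1 the number passing this rule was 2. Over all 43 genes the fitted log2 fold change was above 0 in 40 (93%) and its median was 0.193, against 51.6% above 0 and a median of 0.0115 over all genes tested. For the genes with an average log2 CPM of at least 5, the share above 0 was 53.9% and the median 0.0193.

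**Figure D2:**
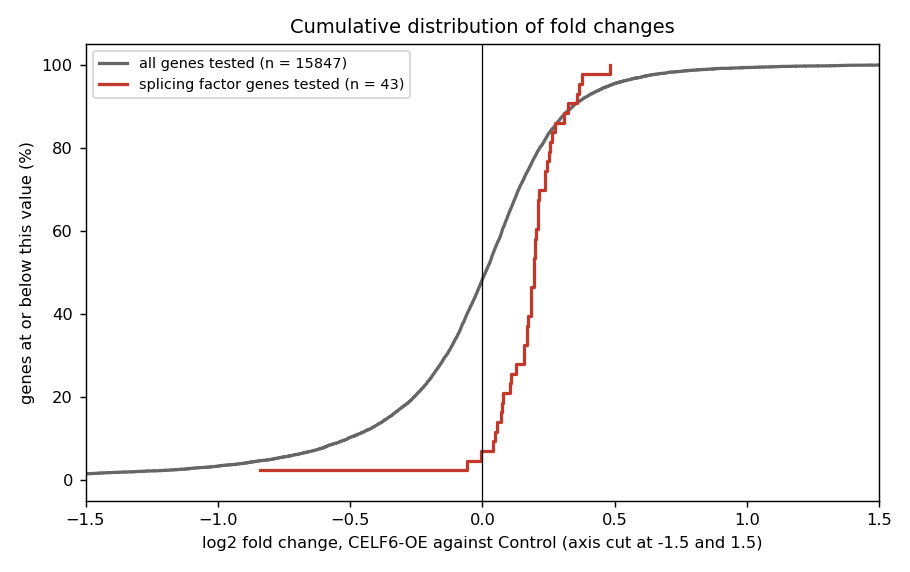
Cumulative share (%) of genes at or below a given log2 fold change (CELF6-OE against Control) for all 15847 genes tested (grey) and the 43 splicing factor genes tested (red). The splicing factor curve lies to the right of the grey curve through most of its range, with medians of 0.193 and 0.0115, and RBFOX3 forms its low end at -0.84.

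In TMM-scaled CPM, the groups did not overlap, with CELF6-OE the higher, for 32 of the 43 genes and with CELF6-OE the lower for RBFOX3, and they overlapped for 10. Of all genes tested, 17.9% had groups apart with CELF6-OE the higher. The Control libraries were not alike for these genes. Control 1 had a higher level than Control 3 for 32 of the 43 genes, with a median log2 difference of 0.153, whereas Control 1 was higher for 49.2% of all genes tested and for 38.3% of those with an average log2 CPM of at least 5 (median log2 difference -0.08). For 22 of the 43 genes the difference between Control 1 and Control 3 was larger in size than the fold change between the groups. In terms of the median log2 distance from the Control mean, the libraries CELF6-OE 1, 2 and 3 lay at 0.19, 0.229 and 0.18, and Control 1, 2 and 3 at 0.0716, 0.0127 and -0.0669. The part of this ordering of the Control libraries in the results was not tested. Leaving out Control 1 raised the median log2 fold change to 0.222, while leaving out Control 3 gave 0.15.

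**Figure D3:**
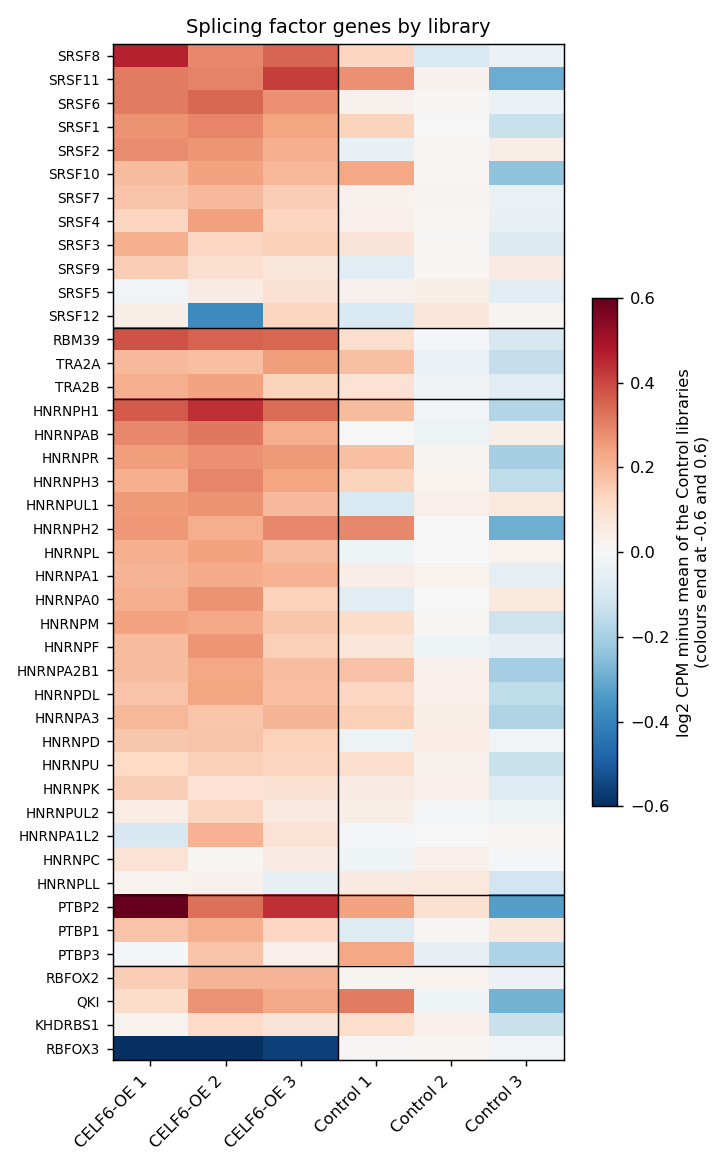
Level of each of the 43 splicing factor genes in each library as log2 CPM minus the mean of the 3 Control libraries (colour scale ending at -0.6 and 0.6, families separated by lines). The CELF6-OE columns are mostly red, Control 1 is mostly pale red and Control 3 mostly pale blue, and RBFOX3 is blue in all 3 CELF6-OE libraries.

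Of the 12 SR protein genes, 4 were higher, none was lower and 8 were not called. Their median log2 fold change was 0.184. SRSF6, an SR protein that binds exonic enhancers, had 36.4, 38.0 and 35.8 FPKM in CELF6-OE and 30.6, 29.0 and 27.7 FPKM in Control. The groups did not overlap, and the log2 fold change was 0.31 ± 0.06 (SE, n = 3 per group, edgeR adjusted p = 0.00394). SRSF6 was called under all 21 alternative settings, and it lies on chromosome 20 from 43457893 to 43466046 on the plus strand (GRCh38). SRSF2, which marks nuclear speckles under its older name SC35, had 123, 123 and 118 FPKM in CELF6-OE and 99.4, 99.4 and 99.7 FPKM in Control. Its Control libraries were nearly identical in FPKM, while TMM-scaled CPM gave 297 in Control 1 and 315 in Control 3. On both scales all Control libraries lay below the CELF6-OE libraries, and the log2 fold change was 0.25 ± 0.06 (edgeR adjusted p = 0.0127).

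SRSF1, the founding member of the family and a splicing factor with oncogenic activity, had 74.95, 77.79 and 74.08 FPKM in CELF6-OE and 69.6, 61.2 and 54.7 FPKM in Control. The Control libraries were spread widely but stayed below all CELF6-OE libraries, and the log2 fold change was 0.26 ± 0.07 (edgeR adjusted p = 0.0290). SRSF8, an SR protein close to SRSF2, was far lower at 6.29, 5.69 and 5.87 FPKM in CELF6-OE and 5.09, 4.21 and 4.30 FPKM in Control. Its groups did not overlap either, with a log2 fold change of 0.37 ± 0.09 (edgeR adjusted p = 0.0153).

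The SR protein with the highest level, SRSF9, was not called. It had 191, 188 and 183 FPKM in CELF6-OE and 169, 172 and 173 FPKM in Control, and its log2 fold change was 0.10 (95% interval -0.03 to 0.23). SRSF7 came nearest to the threshold among the SR proteins not called, with a log2 fold change of 0.17 (edgeR adjusted p = 0.0594). SRSF11 had a larger fitted value of 0.32 but a wide Control range of 5.42 to 8.52 FPKM (edgeR adjusted p = 0.0838). The fitted values of SRSF10, SRSF4 and SRSF3 were 0.20, 0.17 and 0.16. SRSF5 (0.04) and SRSF12 (-0.06) were nearest to 0, and the groups overlapped for both and for SRSF10.

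In TMM-scaled CPM, all 3 SR-like genes had CELF6-OE libraries wholly above the Control libraries, as did 17.9% of all genes tested. The margin was narrow for TRA2A, at 48.57 CPM in CELF6-OE 2 and 48.54 CPM in Control 1. In FPKM the TRA2A groups overlapped, with 21.08 in CELF6-OE 1 and 21.23 in Control 1. Among the 3 genes, only RBM39 passed the test. RBM39, an SR-like protein related to the splicing factor U2AF2, had 38.3, 38.2 and 37.6 FPKM in CELF6-OE and 32.2, 28.8 and 26.5 FPKM in Control. The CELF6-OE libraries were close to each other and the Control libraries were not, and the log2 fold change was 0.36 ± 0.07 (edgeR adjusted p = 0.00390). Its call stood under all 21 alternatives. TRA2B, an activator that binds GA-rich exonic enhancers, was higher in level than RBM39, with 54.1, 56.0 and 51.4 FPKM in CELF6-OE and 50.3, 45.1 and 42.8 FPKM in Control. It missed the threshold (log2 fold change 0.20 ± 0.06, edgeR adjusted p = 0.0574), as did its paralog TRA2A (0.20, edgeR adjusted p = 0.121).

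The hnRNPs formed the largest group, and 8 of the 21 genes were higher, none was lower and 13 were not called. Their median log2 fold change was 0.199. HNRNPAB, which had the highest level of all 46 genes, had 279, 290 and 268 FPKM in CELF6-OE and 232, 220 and 225 FPKM in Control. The groups were well apart relative to their spread, and the log2 fold change was 0.27 ± 0.06 (edgeR adjusted p = 0.00939). HNRNPA1, a classical repressor of exon inclusion that opposes SRSF1 in splice site choice, had 225, 232 and 228 FPKM in CELF6-OE and 205, 195 and 181 FPKM in Control. Its log2 fold change was 0.21 ± 0.06 (edgeR adjusted p = 0.0320), the same direction as that of SRSF1. The table also held 22 processed or other pseudogene rows named after HNRNPA1, which together had 2.47% of its counts, so an exchange of reads between these rows and HNRNPA1 cannot be seen from the counts. The near-identical HNRNPA1L2 was at 0.65 to 0.82 FPKM in CELF6-OE and 0.67 to 0.70 FPKM in Control.

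The group binding G-runs, HNRNPF and the HNRNPH genes, contributed 3 of the genes called higher. HNRNPH1 had 55.9, 59.7 and 55.1 FPKM in CELF6-OE and 50.3, 42.1 and 36.9 FPKM in Control, with the largest log2 fold change among the hnRNPs at 0.37 ± 0.09 (edgeR adjusted p = 0.0127). HNRNPH3 had 55.9, 60.1 and 57.3 FPKM in CELF6-OE and 53.8, 48.0 and 41.8 FPKM in Control (log2 fold change 0.24 ± 0.08, edgeR adjusted p = 0.0459). HNRNPF had 74.6, 80.0 and 72.7 FPKM in CELF6-OE and 70.0, 63.2 and 60.9 FPKM in Control (log2 fold change 0.20 ± 0.06, edgeR adjusted p = 0.0499). In all 3 genes Control 1 was the Control library nearest to the CELF6-OE libraries. The fourth gene of this group, HNRNPH2 on the X chromosome, had a like fitted value of 0.24, but Control 1 at 21.4 FPKM lay above all CELF6-OE libraries and the gene was not called.

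HNRNPL, which binds CA-rich elements, had 84.0, 87.1 and 82.9 FPKM in CELF6-OE and 72.4, 71.3 and 70.8 FPKM in Control (log2 fold change 0.21 ± 0.06, edgeR adjusted p = 0.0247). HNRNPUL1, a relative of the nuclear matrix protein HNRNPU, had 97.99, 100.87 and 94.95 FPKM in CELF6-OE and 78.6, 82.5 and 82.8 FPKM in Control (log2 fold change 0.24 ± 0.06, edgeR adjusted p = 0.0258). HNRNPA0, an AU-rich element binding protein, had 23.4, 24.7 and 22.3 FPKM in CELF6-OE and 19.6, 19.8 and 20.3 FPKM in Control (log2 fold change 0.21 ± 0.06, edgeR adjusted p = 0.0425). For these 3 genes the Control libraries lay close together in FPKM, and all of them were below the CELF6-OE libraries. In TMM-scaled CPM they were also all below, but less close for 2 of the genes. HNRNPUL1 had 335 CPM in Control 1 and 373 in Control 3, and HNRNPA0 had 175 and 191.

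Of the hnRNPs not called, HNRNPM (log2 fold change 0.21, edgeR adjusted p = 0.0597) and HNRNPR (0.25, edgeR adjusted p = 0.0670) came nearest to the threshold. HNRNPA2B1, second in level, had 265 to 278 FPKM in CELF6-OE and 194 to 267 FPKM in Control, and its fitted value of 0.19 had a 95% interval from 0.00 to 0.39. HNRNPC, which guards against the use of Alu exons, had 123 to 128 FPKM in CELF6-OE and 116 to 121 FPKM in Control, and its interval from -0.08 to 0.18 included 0. HNRNPLL, the regulator of CD45 splicing in lymphocytes, had the value nearest to 0 at -0.01 (95% interval -0.18 to 0.16).

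**Figure D4:**
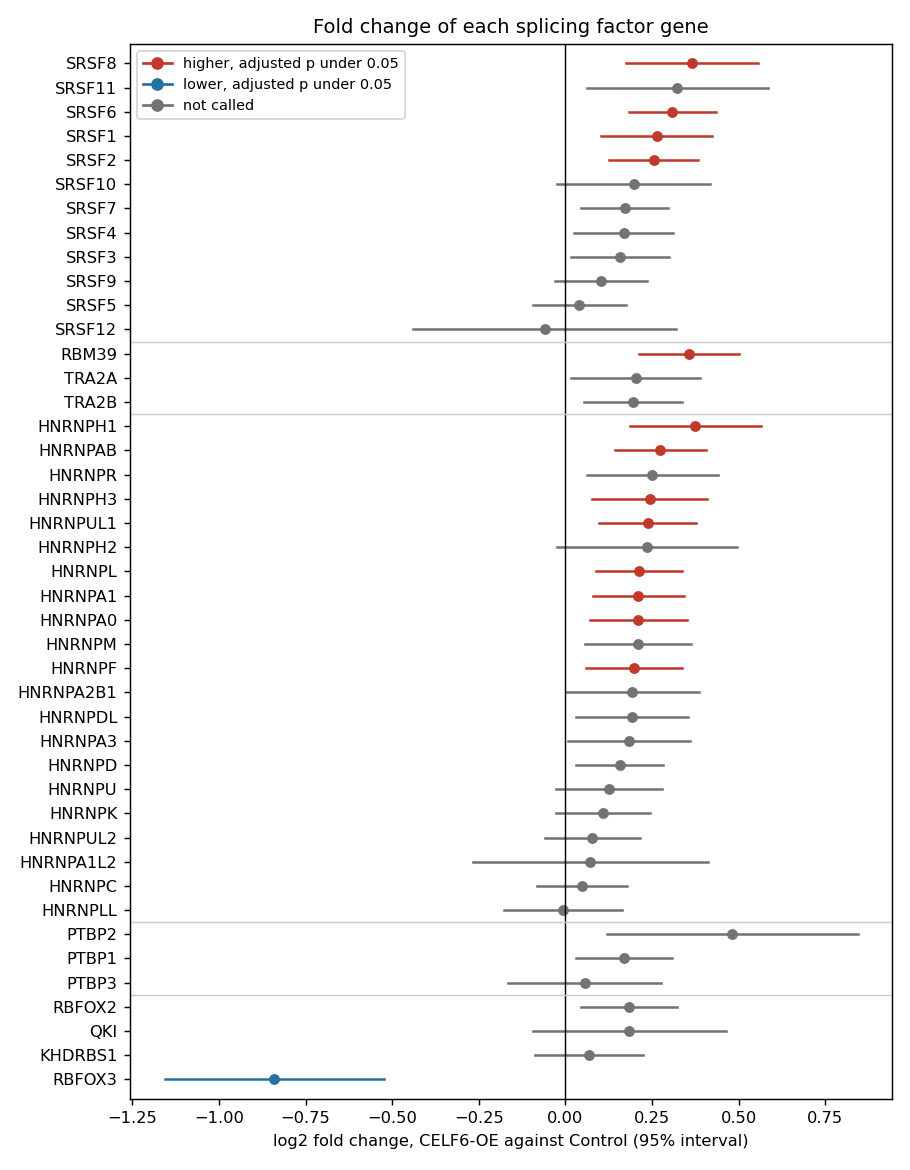
Log2 fold change (CELF6-OE against Control) of the 43 splicing factor genes tested, with 95% intervals from edgeR's quasi-likelihood fit, by family and coloured by the call at an adjusted p of 0.05. The 13 genes called higher lie between 0.20 and 0.37, RBFOX3 lies at -0.84 and 29 genes are not called.

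No PTBP gene was called by edgeR's quasi-likelihood test (0 of 3, with 2 at an unadjusted p under 0.05), and DESeq2 and limma-voom also called 0. Other settings did call them: PTBP2 passed with edgeR's exact test, with no filter on low counts, with the replicate block and without Control 1. PTBP1 passed with library size alone, with both log2 FPKM settings and without Control 3, and both genes passed with the GC and the length correction. PTBP1, the ubiquitous repressor of neuronal and other tissue-specific exons, had 115, 120 and 112 FPKM in CELF6-OE and 98.4, 101 and 103 FPKM in Control. The groups did not overlap, but the log2 fold change of 0.17 ± 0.06 missed the threshold (edgeR adjusted p = 0.0863), and PTBP1 was called under 6 of the 21 alternatives. PTBP2, the neuronal paralog that PTBP1 keeps low through exon skipping, was at 0.41 to 0.53 FPKM in CELF6-OE and 0.25 to 0.39 FPKM in Control (log2 fold change 0.48 ± 0.16, edgeR adjusted p = 0.0654). PTBP3 had a fitted value of 0.06 and overlapping groups.

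RBFOX3, known as the neuronal nuclear antigen NeuN, was the only splicing factor gene called lower. It had 1.02, 0.89 and 1.30 FPKM in CELF6-OE and 1.94, 1.88 and 1.81 FPKM in Control. Every CELF6-OE library lay below every Control library, and the log2 fold change was -0.84 ± 0.14 (edgeR adjusted p = 0.00242), a fall of 44.2%. Its call stood under all 21 alternatives, with log2 fold changes from -1.01 to -0.48. The value of -0.48 came from log2(FPKM + 1), where 1 is added to the FPKM of this low gene. The gene is long, from position 79089345 to 79611051 on the minus strand of chromosome 17 (GRCh38), and its level was low in both groups. The paralog RBFOX2, which is expressed in epithelial and many other cells, had 6.27 to 6.63 FPKM in CELF6-OE and 5.32 to 5.84 FPKM in Control (log2 fold change 0.18, edgeR adjusted p = 0.0659).

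KHDRBS1, also called Sam68, had 51.1, 55.4 and 53.6 FPKM in CELF6-OE and 55.2, 50.5 and 44.2 FPKM in Control. The groups overlapped, and the log2 fold change was 0.07 (95% interval -0.09 to 0.22). QKI was at 1.60 to 1.82 FPKM in CELF6-OE and 1.17 to 1.87 FPKM in Control and was not called either.

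Summed over a family in FPKM, the log2 ratios of CELF6-OE to Control ran from 0.09 to 0.28. The 21 hnRNP genes summed to 1889 ± 38.9 FPKM in CELF6-OE and 1619 ± 118 FPKM in Control (SD, n = 3 per group). The 12 SR genes summed to 668 ± 10.8 FPKM and 579 ± 23.2 FPKM. On the log2 scale, the ratio of CELF6-OE to Control was 0.22 for the hnRNP sum and 0.21 for the SR sum. The log2 ratio was 0.28 for the SR-like genes, 0.19 for the PTBP genes and 0.09 for the other regulators, whose sum is mostly KHDRBS1. Sums of TMM-scaled CPM gave log2 ratios of 0.18 (hnRNP), 0.20 (SR), 0.25 (SR-like), 0.16 (PTBP) and 0.09 (other regulators). For the SR, SR-like, hnRNP and PTBP sums, the lowest CELF6-OE library exceeded the highest Control library, and with 3 libraries against 3 an exact permutation test cannot go below p = 0.10. As these are bulk samples, a change of RNA per cell and a change in the share of cells carrying it cannot be told apart.

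The splicing factor genes differed from other genes in their annotation. In GENCODE v44 the 43 genes tested had a median of 14 transcripts, against 8 for the 13254 protein-coding genes tested. At least 1 transcript was annotated as a target of nonsense-mediated decay in 33 of the 43 genes (76.7%), against 46.9%, and at least 1 retained-intron transcript in 76.7%, against 59.2%. Of the called genes, HNRNPA1 had 18 transcripts annotated as decay targets, RBM39 had 16 and HNRNPH1 had 8, while HNRNPAB, HNRNPF, HNRNPH3, HNRNPA0 and RBFOX3 had none. The transcripts' GC content also differed, with a median of 42.2% against 48.9%. With a correction for GC content, which was chosen after seeing the data, 26 splicing factor genes were called higher beside 20.1% of all genes, and with one for transcript length 28 beside 13.2%.

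Several members share exonic positions with neighbouring genes. The libraries were directional, but the strand setting of the counting is not given in the sources used here. SRSF1 overlaps RP11-159D12.5 on the same strand over 32.69% of its exonic bases. RP11-159D12.5 had 12.6% as many counts and was itself higher (log2 fold change 0.47, edgeR adjusted p = 0.00176). HNRNPL shares 8.64% of its exonic bases with AC104534.3 on the same strand, which had 80.3% as many counts (log2 fold change 0.14). The other overlaps of called genes named here are on the opposite strand. HNRNPUL1 shares 3.21% with TGFB1, which had 44.5% as many counts (log2 fold change 0.03). SRSF2 shares 27.65% with MFSD11, which had 5.45% as many (log2 fold change 0.00). HNRNPAB shares 9.25% with PHYKPL, which had 1.58% as many counts and was lower (log2 fold change -0.37, edgeR adjusted p = 0.0312). Of the genes not called, HNRNPA2B1 shares 9.57% with NFE2L3 on the opposite strand. NFE2L3 was lower by a larger amount (log2 fold change -1.31, edgeR adjusted p = 1.21e-05) at 4.69% as many counts. HNRNPA3 shares 53.65% with NFE2L2 on the opposite strand, and HNRNPUL2 shares 44.27% with HNRNPUL2-BSCL2 on the same strand. The values of these members are uncertain to the extent that such reads were assigned across genes.

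Fitted values were above 0 in 20 of the 21 hnRNP genes (median 0.199) and in 11 of the 12 SR genes (median 0.184). The promoters of the splicing factor genes were searched for short elements. RefSeq's promoter table (GRCh38.p14, 250 bases before to 50 after each start) held 38 of the 46 genes, 37 of them tested. The letters CCAAT, read on both strands and bound classically by NF-Y, were found in 17 of the 20 hnRNP genes matched (85.0%) and in 2 of the 11 SR genes matched (18.2%). They were found in 42.9% of the 10388 tested genes matched and in 39.7% of the 27305 genes of the table. Among the genes called higher, 8 of the 10 matched held CCAAT, beside 21 of the 37 tested splicing factor genes matched (56.8%). Most of the genes called higher were hnRNPs, so their share cannot be told apart from the 85.0% of that family. A gene was counted where any of its starts held the letters, so genes with more starts had more chances. The GC box letters GGGCGG were found in 85.0% of the hnRNP genes, 45.5% of the SR genes and 76.3% of the tested genes matched. The E-box letters CACGTG were found in 35.0% of the hnRNP genes, in 0 of the 11 SR genes and in 12.6% of the tested genes matched. The TATA box letters TATAAA were found in 15.0%, 27.3% and 8.35%, respectively. A match is a description of the sequence, and factor binding was not measured in these samples.

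To show these elements, the 150 bases before a start are given for 4 hnRNP genes called higher, 5′ to 3′ on the gene's strand, where the window overlaps no annotated exon. For HNRNPUL1, which has 3 starts in the table, the window shown is the only one that overlaps no annotated exon. HNRNPL has 2 starts, and neither window overlaps an annotated exon. The HNRNPL window shown is the one with more CCAAT matches. The other, chr19:38852348-38852497, lies directly before the annotated gene start and holds CCAAT at 80 bases and a GC box at 27. The capitals mark the CCAAT letters, the GC box and the TATA box on either strand. The windows are chr5:178204383-178204532 (plus strand) for HNRNPAB, chr19:38849987-38850136 (minus strand) for HNRNPL, chr5:137754364-137754513 (minus strand) for HNRNPA0 and chr19:41264222-41264371 (plus strand) for HNRNPUL1.
HNRNPAB: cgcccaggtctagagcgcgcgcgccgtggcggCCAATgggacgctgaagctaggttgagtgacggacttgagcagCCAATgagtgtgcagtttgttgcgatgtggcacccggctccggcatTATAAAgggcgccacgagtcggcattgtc
HNRNPL: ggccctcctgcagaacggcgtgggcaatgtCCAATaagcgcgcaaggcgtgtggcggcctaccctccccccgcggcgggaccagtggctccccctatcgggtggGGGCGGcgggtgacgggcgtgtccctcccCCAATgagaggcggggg
HNRNPA0: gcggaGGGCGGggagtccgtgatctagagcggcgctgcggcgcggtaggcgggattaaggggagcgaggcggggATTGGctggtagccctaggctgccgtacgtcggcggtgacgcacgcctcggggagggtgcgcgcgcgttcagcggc
HNRNPUL1: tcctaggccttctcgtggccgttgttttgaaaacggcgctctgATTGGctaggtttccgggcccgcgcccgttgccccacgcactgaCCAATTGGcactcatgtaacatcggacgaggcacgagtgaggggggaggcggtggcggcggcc
HNRNPAB holds CCAAT at 118 and 75 bases before its start and TATAAA at 29. In the window shown, HNRNPL holds CCAAT at 120 and 17 bases and a GC box at 46. HNRNPA0 holds CCAAT on the opposite strand at 76 bases and a GC box at 145. HNRNPUL1 holds 3 matches, of which those at 63 and 60 bases overlap on opposite strands.

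Other genes of the splicing pathway were set beside these families from 5 lists. Of 41 genes of the core snRNPs and of splice site recognition tested, 6 were higher and none lower, beside 6.47% and 11.5% of all genes. Of the genes with an average log2 CPM of at least 5, 9.6% were higher. The median log2 fold change of the list was 0.0918, against 0.0115 over all genes and 0.0193 over those genes of higher level. PRPF8, the central scaffold of the spliceosome, rose most clearly, from 31.0, 32.3 and 34.4 FPKM in Control to 45.4, 49.1 and 44.1 FPKM in CELF6-OE (log2 fold change 0.47 ± 0.07, edgeR adjusted p = 0.00124). LUC7L3 (0.37), DHX15 (0.29) and the polypyrimidine tract binding subunit U2AF2 (0.24) were also higher. The count of this list fell to 1 without CELF6-OE 1, 2 or 3 or without Control 2, and rose to 10 without Control 3.

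None of the 8 SR protein kinases tested was called by edgeR, and DESeq2 and limma-voom also called 0. By edgeR, 2 had an unadjusted p under 0.05, and 4 were called without Control 1. SRPK1 (log2 fold change 0.19, unadjusted p = 0.0288 and edgeR adjusted p = 0.107) and CLK1 (0.25, unadjusted p = 0.0295 and edgeR adjusted p = 0.108) had the smallest p. Of the 19 SR-related proteins, RSRC2 was higher (log2 fold change 0.29, edgeR adjusted p = 0.0485) and none was lower. At 1 of 19, the share was no larger than the 6.47% of all genes called higher. This call was lost without any 1 of the CELF6-OE libraries or Control 2, each leaving 0 genes, while 4 genes were called without Control 1 and 2 without Control 3. Of the 18 exon junction complex and nonsense-mediated decay genes, RBM8A (0.23, edgeR adjusted p = 0.0168) and DHX34 (0.31, edgeR adjusted p = 0.0443) were higher and none was lower. These 2 of 18 stand beside 6.47% of all genes and 9.6% of the genes with an average log2 CPM of at least 5, and the count is too close to these shares to be a result about the list. The number was 0 without CELF6-OE 1, CELF6-OE 2 or Control 2, 1 without CELF6-OE 3 and 5 without Control 1.

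Of the 34 other splicing regulators tested, 9 were higher and 1 was lower, beside 6.47% higher and 11.5% lower over all genes tested. The share higher was 9.6% over the genes with an average log2 CPM of at least 5. KHDRBS3, the paralog of KHDRBS1, rose from 0.48, 0.31 and 0.30 FPKM in Control to 1.07, 0.91 and 0.83 FPKM in CELF6-OE (log2 fold change 1.33 ± 0.21, edgeR adjusted p = 0.00172). PSPC1 (0.38) and SFPQ (0.35), partners in paraspeckles, and RBM17 (0.26) followed by p. The gene called lower was RBM47, an epithelial regulator, with a log2 fold change of -0.32 (edgeR adjusted p = 0.0365), and it is named here after its value was seen because it was the only one in its direction. The count of calls in this list was 3 without CELF6-OE 1 or CELF6-OE 2 and 2 without Control 2.

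**Figure D5:**
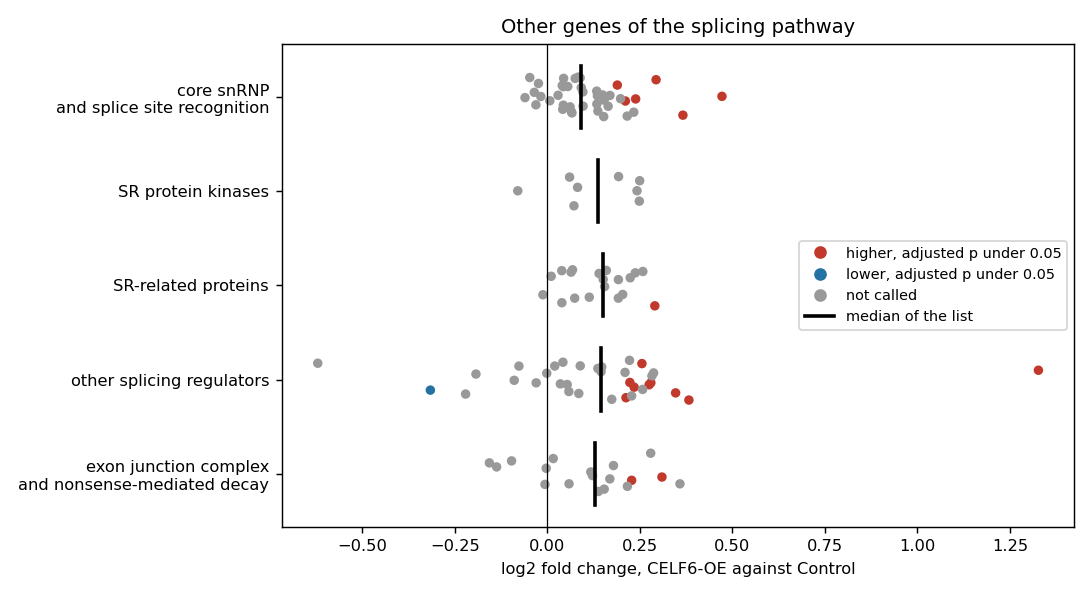
Log2 fold change (CELF6-OE against Control) of each tested gene in 5 lists of other splicing pathway genes, coloured by the call at an adjusted p of 0.05, with black bars at the list medians. The medians lie between 0.0918 and 0.151, and the point farthest right is KHDRBS3 at 1.33.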

How the data were processed

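RNA-seq libraries of 3 CELF6-OE and 3 Control samples of A549 cells were analysed. After trimming with FASTX-Toolkit and alignment by TopHat2 to GRCh38 (at most 4 mismatches), the authors deposited whole-number counts per gene from uniquely located reads. They also deposited FPKM values of the same genes, rounded by the authors. How reads were counted (tool, strand setting, annotation release) is not given in the sources used here. From the counts, genes kept by filterByExpr (minimum count 10) were scaled with TMM and tested with the quasi-likelihood test of edgeR 4.0.16 (R 4.3.3) with Benjamini-Hochberg adjustment over 15847 genes. The prior degrees of freedom were 7.15. SE and 95% intervals came from the same fit, and the code was tested on simulated data. There it recovered 12 of 50 genes changed 1.25-fold and 37 of 50 changed 1.5-fold. Changes of the size reported here can therefore go uncalled. FPKM values served for levels. DESeq2 1.42.0 and limma 3.58.1 were alternatives.

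Library totals of 33748328 to 37920700 counts set the precision, and limits for a count of 0 cover counting error only. Same-numbered samples did not deviate together (correlations -0.056, -0.046 and -0.099), so replicate numbers were not used as pairs. GENCODE v44 held 97.1% of the identifiers. The members, gene lists and tests were chosen with earlier results of these data known. Library values are given for SRSF1, HNRNPA1, PTBP1, genes with an adjusted p under 0.05 or p under 0.01, genes removed by the filter and the highest gene of each family. Of each list, up to 4 called genes with the smallest p were named, or 2 where none was called.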

Additional observations from a re-analysis of the deposited data

How the results depend on the processing

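In 21 alternatives (18 named splicing factor genes, each in every alternative) no fold change was reversed. RBFOX3, SRSF6 and RBM39 were called in all 21, and the other 11 called genes in 12 to 19. The number of splicing factor genes called higher (13) was 13 with RLE or limma-voom, 14 with DESeq2 and 17 with library size alone or no filter. It was 7 with the replicate block (PTBP2 among them), 26 with the GC correction and 28 with the length correction (both added after seeing the data), and 2 to 26 with each replicate left out. The number past 1.5-fold and p under 0.01 (1) was 0 with log2(FPKM + 1) and 1 to 2 with each replicate left out. Genes called higher among all genes (1025) numbered 3190 with the GC correction, 2092 with the length correction and 281 to 1906 with each replicate left out, and genes called lower (1820) 1032 to 2370. Calls in the higher direction made up 36% of all calls, 45.9% with library size alone, 61.1% with the GC correction, 56.1% with the length correction and 31.4% with the replicate block. They made up 25.1%, 20.9% and 29.1% without CELF6-OE 1, 2 and 3, and 44.6%, 21.8% and 38.7% without Control 1, 2 and 3. For the core snRNP list (6 calls), the numbers were 10 with library size alone, 3 with the replicate block, 21 and 18 with the GC and length corrections and 1 to 10 with each replicate left out. For the SR protein kinases (0 calls) they were 2 with either correction and 0 to 4 with each replicate left out. For the SR-related proteins (1 call) they were 2 with library size alone or the exact test, 3 with no filter, 0 with the replicate block, 10 and 5 with the GC and length corrections and 0 to 4 with each replicate left out. For the other regulators (10 calls) they were 23 and 18 with the corrections and 2 to 14 with each replicate left out. For the exon junction complex and decay list (2 calls) they were 4 with library size alone, no filter, log2(FPKM + 1) or log2(FPKM + 0.1), 0 with the replicate block, 10 with the GC correction and 0 to 5 with each replicate left out. The cause of these shifts was not tested, and with each replicate left out the test also had fewer samples.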
